A study of Mus musculus with 8 samples.

Results

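Chemokines, interleukins and the receptors for both were followed on 4 mouse expression arrays. The genes were chosen by name alone: a probe was taken when its gene name in the scanner file of the fibroblast array started with Ccl, Cxcl, Ccr, Cxcr or Il and a number, and Il6st, the shared signalling chain gp130, was left out. This gave 180 of 41174 probes and 127 of 27962 genes. They comprised 20 CC chemokines, 13 CXC chemokines, 14 chemokine receptors, 39 interleukins and soluble antagonists, 40 interleukin receptor chains, and the secreted amino acid oxidase Il4i1. At least 1 probe was well above background on at least 1 array for 101 genes (129 probes). The other 26 genes were not well above background on any of the 4 arrays. Among them were Ccl22, Ccr2, Ccr4, Ccr7, Ccr8, Cxcl13, Cxcl15, Cxcr3, Il12b, Il17a, Il1f10, Il20, Il20ra, Il21, Il22, Il22ra1, Il22ra2, Il23r, Il2ra, Il4, Il5, Il5ra, Il8ra, Il9 and Il9r.

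The RNA came from 4 cell populations, with 1 Cy3-labelled Agilent array each. PM2i-iPSC are MEF that received purmorphamine, an agonist of the Hedgehog pathway protein Smoothened, in combinations, and then 2i/LIF. OM2i-iPSC were made in the same way with an oxysterol in place of purmorphamine. ES are embryonic stem cells of 129/Ola blastocysts, and MEF are mouse embryonic fibroblasts. 2i/LIF is a medium with inhibitors of MEK and GSK3 and the cytokine LIF, and the name MEF covers a mixed primary culture. The labels used here give neither the strain nor the passage of the MEF, and do not say whether an iPSC preparation was a clone. The other 4 samples of the series, on Affymetrix arrays, were not used here.

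Chemokines are small secreted proteins that draw leukocytes and stem or progenitor cells along a gradient, and their receptors couple to G proteins. Interleukins signal through paired receptor chains, either to JAK kinases and STAT factors or, for the IL-1 and IL-17 families, through adaptor proteins to NF-kB and MAP kinases. Fibroblasts secrete many chemokines and IL-6 family cytokines in culture. Mouse ES cells are kept undifferentiated by LIF, a cytokine of the IL-6 family that acts through Lifr, gp130 and Stat3.

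A level here is log2 of the processed signal relative to the 75th percentile of its array, so 0 is the signal that 75% of probes do not exceed. Each gene is given by its brightest probe, and levels are compared across arrays for the same probe only. Spread was read from 129 probes of the whole array with at least 5 spots per array and well above background on all 4. These are not the detected probes of the set, most of which had 1 spot. Their repeat spots differed with an SD of 0.185 within an array, which gives 0.262 for a difference of 2 spots. That is the only error that can be given, since there was 1 array per group and no test. A fold is written as at least its size if the brighter spot was saturated or if the dimmer signal failed the scanner's test for lying well above background (called dim here). Detection reached lower on the MEF array, with its lowest signal well above background at -6.85, against -4.59, -4.59 and -5.13 on the PM2i-iPSC, OM2i-iPSC and ES arrays. ES and PM2i-iPSC lay on the same slide, OM2i-iPSC on another slide of that scan day, and MEF on a slide of its own, scanned on another day and read with older software. For every comparison with MEF, slide, scan day and software cannot be told apart from cell type. The 9 fibroblast markers had median levels of -1.40, -0.47 and -1.86 in PM2i-iPSC, OM2i-iPSC and ES, against 3.35 in MEF. The 9 pluripotency markers had median levels of 3.21, 2.68 and 3.65, against -3.98 in MEF, so both label kinds matched their markers.

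Promoters of 4 chemokines are printed because they hold a match to the kappaB consensus, the binding motif of NF-kB, and belong to genes far lower on the 3 pluripotent arrays than on the MEF array. They are the 4 with the largest smallest difference from MEF among chemokines with a match. Each line is the 250 bases before the RefSeq start on build GRCm38.p6, on the strand of the gene, 5′ to 3′, and capitals mark the match.
Ccl9, chr11:83578637-83578886, minus strand: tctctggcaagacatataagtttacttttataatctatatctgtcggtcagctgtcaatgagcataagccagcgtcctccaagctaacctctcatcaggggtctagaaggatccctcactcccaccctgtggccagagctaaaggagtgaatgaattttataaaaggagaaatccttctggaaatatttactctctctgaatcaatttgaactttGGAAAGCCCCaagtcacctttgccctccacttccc
Cxcl2, chr5:90903649-90903898, plus strand: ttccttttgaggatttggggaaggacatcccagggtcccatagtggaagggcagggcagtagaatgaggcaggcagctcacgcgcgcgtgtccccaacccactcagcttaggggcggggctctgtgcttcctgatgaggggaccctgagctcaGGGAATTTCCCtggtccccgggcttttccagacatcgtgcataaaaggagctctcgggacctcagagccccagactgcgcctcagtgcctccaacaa
Cxcl1, chr5:90890995-90891244, plus strand: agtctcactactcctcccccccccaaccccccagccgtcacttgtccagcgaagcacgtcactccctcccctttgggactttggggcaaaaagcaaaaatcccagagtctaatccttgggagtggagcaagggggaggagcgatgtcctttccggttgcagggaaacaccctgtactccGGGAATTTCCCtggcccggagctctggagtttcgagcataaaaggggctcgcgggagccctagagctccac
Ccl20, chr1:83116516-83116765, plus strand: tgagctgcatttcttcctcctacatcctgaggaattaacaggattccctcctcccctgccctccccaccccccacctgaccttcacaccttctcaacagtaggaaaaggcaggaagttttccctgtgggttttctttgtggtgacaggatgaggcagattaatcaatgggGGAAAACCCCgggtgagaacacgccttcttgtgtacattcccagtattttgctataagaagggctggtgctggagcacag
The match began 35 bases before the start in Ccl9, 97 in Cxcl2, 71 in Cxcl1 and 80 in Ccl20. Cxcl1 and Cxcl2 hold the same run, GGGAATTTCCC, which matches on both strands in overlapping positions. Both strands were searched, and 4.46% of the 27025 genes with a promoter in the RefSeq table hold a match in this window. Among the 98 genes of the set with a promoter, 12 held a match (12.2%). Among the 27 of these that were at least 2-fold lower than MEF on all 3 other arrays, 8 did (29.6%), namely Ccl9, Ccl20, Cxcl1, Cxcl2, Cxcl10, Il16, Il1r1 and Il6. Among the remaining 71 genes, 4 did (5.63%). The 27 were picked by their levels, so these shares are a description, and a match is not a shown binding site.

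Relative to MEF, more of these genes were lower than higher on each of the other arrays, though for OM2i-iPSC this turned among genes above background on both arrays (22 lower and 25 higher). On that subset PM2i-iPSC had 23 lower and 20 higher, and ES had 24 lower and 17 higher. Genes seen in MEF alone could only be called lower. Of the lower genes counted next, 21 in PM2i-iPSC, 17 in OM2i-iPSC and 22 in ES were bounds. In PM2i-iPSC, 42 of the 92 genes that entered were at least 2-fold lower, against 23.6% of all genes, and 21 were at least 2-fold higher, against 33.9%. In OM2i-iPSC, 37 of 100 were lower, against 23.1% of all genes, and 33 were higher, against 36.8%. In ES, 43 of 98 were lower, against 22.4% of all genes, and 23 were higher, against 33.7%. Median log2 differences from MEF were -1.22 in PM2i-iPSC, -0.13 in OM2i-iPSC and -0.97 in ES, beside 0.26, 0.38 and 0.27 over all genes. Quantile scaling lowered the all-gene differences from MEF by 0.63, 0.75 and 0.57 in that order of arrays. It gave 43 genes lower and 24 higher for OM2i-iPSC, and 50 lower and 16 higher for ES. In a bulk sample, fewer cells that express a gene and less RNA per cell cannot be told apart.

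The 3 comparisons with MEF share the MEF array, so its error enters all of them. Of 91 genes that entered all 3, 36 (39.6%) were at least 2-fold lower than in MEF on all 3, against 16.3% of all genes. They were 11 CC chemokines, 10 CXC chemokines, Cxcr6, the interleukin or antagonist genes Il6, Il11, Il16 and Il1rn, and 10 interleukin receptor chains. At least 2-fold higher on all 3 were 11 (12.1%), against 22.7% of all genes, namely Ccl21c, Il17re, Il18bp, Il1f6, Il1f8, Il1rapl2, Il2, Il25, Il28, Il6ra and Il8rb. For Ccl21c, Il17re, Il1rapl2 and Il2 the MEF level lay under the highest floor of the other arrays. Above background on the MEF array alone were 23 of the 127 genes (18.1%), against 6.57% of all genes. Detection over all genes was also highest on the MEF array, at 65.7%, 68.8% and 68.3% in PM2i-iPSC, OM2i-iPSC and ES against 73.4% in MEF. For 7 of these (Ccl12, Ccr3, Ccr10, Cxcl9, Il10, Il10ra and Il1b) the MEF level was at or under the highest floor of the other arrays, so no fold can be given for at least 2 of the 3. Il17c, Il17f and Il18rap were above background on the OM2i-iPSC array alone, and no gene was so on the PM2i-iPSC or the ES array alone.

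**Figure D1:**
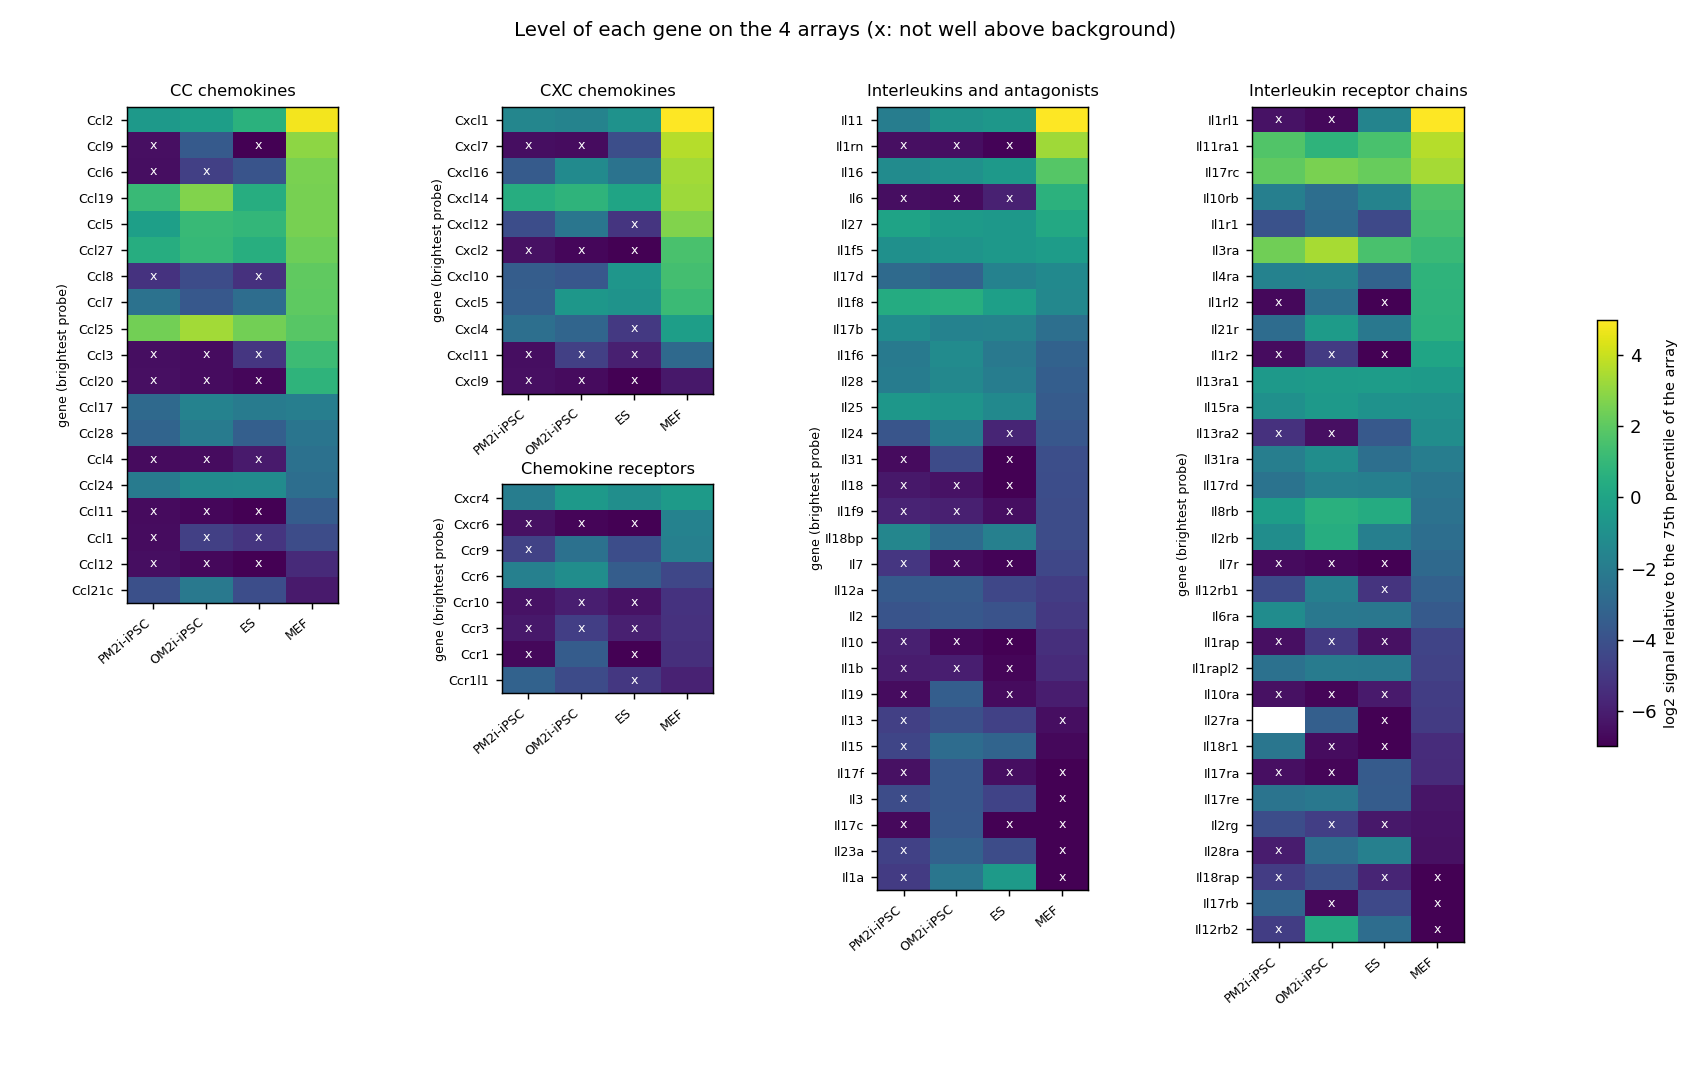
Heat map of the level (log2 signal relative to the 75th percentile of the array) of each gene that was well above background on at least 1 array, by role, with PM2i-iPSC, OM2i-iPSC, ES and MEF from left to right; Il4i1 is not drawn. A cross marks a level not well above background, and the white cell is Il27ra, whose spot was flagged on the PM2i-iPSC array. The MEF column is bright for most CC and CXC chemokines, while several interleukins and receptor chains are dimmest there.

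The CXC chemokines were the role with the most uniform pattern. Of 11 detected genes, all of them above background in MEF, 10 were at least 2-fold lower on each pluripotent array than in MEF. The share over all genes was 16.3%. The other CXC chemokine, Cxcl9, was near background everywhere (-6.21 in MEF). The median log2 difference was -5.52 in PM2i-iPSC, -4.79 in OM2i-iPSC and -5.25 in ES, and it stayed between -5.43 and -4.43 under quantile scaling, normexp background correction and the median over probes. CXC chemokines measured on both arrays without a bound gave smaller medians. These were -4.71 in PM2i-iPSC (6 genes), -3.69 in OM2i-iPSC (6 genes) and -3.22 in ES (5 genes). All 5 CXC chemokines that were above background on all 4 arrays had their highest level in MEF, whereas 34.7% of the 16000 genes above background on all 4 did.

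Neutrophil-attracting chemokines that act through Cxcr2 came from a cluster on chromosome 5. Cxcl1 read -1.51, -1.66 and -0.89 in PM2i-iPSC, OM2i-iPSC and ES, against 5.05 in MEF, where its spot was saturated. This is at least 94.0-fold, 104-fold and 61.3-fold lower. The 3 pluripotent arrays lay close together and far from MEF. Cxcl5 read -3.36, -0.64 and -0.85, against 1.17 in MEF, which is 23.2-fold lower in PM2i-iPSC, 3.51-fold in OM2i-iPSC and 4.08-fold in ES. Here PM2i-iPSC was the low array of the 3. Cxcl2 was not well above background on the 3 pluripotent arrays and read 1.57 in MEF, at least 71.6-fold lower in PM2i-iPSC, 71.7-fold in OM2i-iPSC and 104-fold in ES. Cxcl7, the platelet chemokine now called Ppbp, was dim in both iPSC preparations, at -4.11 in ES and at 3.68 in MEF. Its level was at least 308-fold lower than MEF in each iPSC preparation and 221-fold lower in ES. Cxcl4, the platelet factor now called Pf4, read -2.62 and -3.07 in PM2i-iPSC and OM2i-iPSC, was dim in ES, and read -0.26 in MEF. With Cxcl15, which was dim on every array, these genes lie between positions 90732453 and 90894807 of chromosome 5 on build mm7 of the MEF file, and all 5 detected genes were lower than MEF on all 3 arrays. The share over all genes was 16.3%.

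Interferon-inducible ligands of Cxcr3 lie further along chromosome 5, from 92310412 to 92348495. Cxcl10 read -3.48, -3.76 and -0.68 in PM2i-iPSC, OM2i-iPSC and ES, against 1.40 in MEF, 29.4-fold, 35.9-fold and 4.24-fold lower. ES lay between the iPSC preparations and MEF. Cxcl11 was seen in MEF alone, at -2.88. Their receptor Cxcr3 was dim on all 4 arrays.

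Cxcl12, the stromal ligand of Cxcr4 that guides stem and germ cells, read -4.18 and -2.30 in PM2i-iPSC and OM2i-iPSC, was dim in ES, and read 2.71 in MEF. It was 119-fold, 32.3-fold and at least 230.0-fold lower than MEF. Its other probe was above background in MEF alone. Cxcr4 itself read -1.93, -0.56 and -1.08, against -0.45 in MEF, 2.78-fold lower in PM2i-iPSC and under 2-fold in OM2i-iPSC and ES. Its other probe read -3.59 and -2.30, was dim in ES, and read -3.67 in MEF: within 2-fold in PM2i-iPSC, 2.59-fold higher in OM2i-iPSC and at least 2.76-fold lower in ES. Cxcl16, the membrane-anchored ligand of Cxcr6, read -3.54, -1.25 and -2.44, against 3.32 in MEF, 117-fold, 23.8-fold and 54.3-fold lower, and 8.67-fold, 7.12-fold and 15.6-fold lower on its other probe. Cxcr6 was dim on the 3 pluripotent arrays and read -1.68 in MEF, so ligand and receptor were both highest in MEF. Cxcl14, a chemokine of epithelia and fibroblasts, kept moderate levels of 0.49, 0.78 and 0.00, against 3.22 in MEF, 6.63-fold, 5.41-fold and 9.31-fold lower.

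CC chemokines went the same way for most genes but not for all. Of 19 detected genes, all of them above background in MEF, 13 were at least 2-fold lower than MEF in PM2i-iPSC, 11 in OM2i-iPSC and 13 in ES, and 1, 3 and 2 were at least 2-fold higher. As shares, 68.4%, 57.9% and 68.4% were lower and 5.26%, 15.8% and 10.5% higher. Over all genes, 23.6%, 23.1% and 22.4% were lower and 33.9%, 36.8% and 33.7% higher. The median differences of the CC chemokines were -1.97, -1.37 and -1.94.

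The monocyte attractants of a chromosome 11 cluster (82118723 to 82258468, mm7) were among the lower genes. Ccl2, the main monocyte attractant, is measured by a probe with up to 10 spots per array. It read -0.49 ± 0.09 in PM2i-iPSC (SD over 9 spots), -0.28 ± 0.15 in OM2i-iPSC (10 spots) and 0.68 ± 0.12 in ES (9 spots), against 4.79 ± 0.13 in MEF (10 spots). No spot of a pluripotent array reached the MEF spots, and the folds were 38.9, 33.7 and 17.3 lower. Ccl7 of the same cluster read -2.46, -3.68 and -2.72, against 2.04 in MEF, 22.5-fold, 52.6-fold and 27.0-fold lower, and 67.0-fold, 87.5-fold and 17.3-fold lower on its other probe. Ccl8 was dim in PM2i-iPSC and ES, read -4.22 in OM2i-iPSC and 2.06 in MEF. The log2 difference from MEF was -6.65 or more extreme in PM2i-iPSC, -6.28 in OM2i-iPSC and -7.19 or more extreme in ES. Ccl11, an eosinophil attractant, was dim on the 3 pluripotent arrays and at -3.50 in MEF. Ccl1 and Ccl12 were also seen in MEF alone, too dim for a 2-fold bound. In this cluster 4 of 6 genes were lower than MEF on all 3 arrays, against 16.3% of all genes.

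Another chromosome 11 cluster, from 83595699 to 83734514, holds the leukocyte attractants Ccl5, Ccl9, Ccl6, Ccl3 and Ccl4. All 5 were lower than MEF on all 3 arrays, against 16.3% of all genes. Ccl9 was dim in PM2i-iPSC and ES, read -3.61 in OM2i-iPSC and 2.98 in MEF. It lay at least 190.0-fold under MEF in PM2i-iPSC, 96.2-fold in OM2i-iPSC and at least 277-fold in ES. Ccl6 was dim in both iPSC preparations, read -3.90 in ES and 2.60 in MEF, at least 146-fold lower in each iPSC preparation and 90.4-fold in ES. Ccl5, which draws T cells and monocytes, was above background everywhere, with -0.21, 1.10 and 0.97 against 2.53 in MEF, 6.68-fold, 2.70-fold and 2.97-fold lower. Its other probe gave wider gaps, with -3.66, -2.79 and 0.59 against 2.63 in MEF, 78.3-fold, 42.8-fold and 4.12-fold lower. Ccl3 read 1.25 and Ccl4 -2.52 in MEF, and both were dim elsewhere. Ccl20, the ligand of Ccr6 on chromosome 1, was dim on the 3 pluripotent arrays and read 0.78 in MEF, at least 41.4-fold lower in PM2i-iPSC and OM2i-iPSC and 60.4-fold in ES.

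Macrophages also make several of these chemokines, and 13 of 15 macrophage markers were above background in MEF, against 8, 9 and 11 in PM2i-iPSC, OM2i-iPSC and ES. Over all genes, 73.4% were above background in MEF, against 65.7%, 68.8% and 68.3% on those arrays. The summed macrophage marker level (log2 of the summed signal) was 2.70, 2.31 and 2.85 in PM2i-iPSC, OM2i-iPSC and ES, against 2.90 in MEF. Relative to MEF, 4, 3 and 5 markers were at least 2-fold higher and 4, 4 and 4 lower. Emr1 (0.59) and Tyrobp (0.93) were above background in MEF alone, while Mrc1 read -0.48, -2.85 and -1.10 against -5.04 in MEF. Ptprc, the pan-leukocyte marker, and C1qc were not above background in MEF. The part of macrophages in the MEF levels was not tested. Markers of other types above background numbered 6, 7 and 8 of 9 for T and NK cells (6 in MEF), 5, 6 and 5 of 6 for B cells (4 in MEF), 3, 5 and 5 of 7 for mast cells (4 in MEF), 2, 2 and 2 of 6 for granulocytes (3 in MEF) and 4, 4 and 4 of 7 for endothelial cells (6 in MEF).

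Ligands of lymphoid and epithelial receptors made up the rest of the CC family. Ccl25, the ligand of Ccr9, read 2.45, 3.36 and 2.43, against 1.90 in MEF, so OM2i-iPSC was 2.75-fold higher and the other arrays within 2-fold. Ccl21c, of the Ccl21 family that binds Ccr7, read -4.05, -2.16 and -4.18, against -6.15 in MEF, 4.29-fold, 15.9-fold and 3.91-fold higher. It was the CC chemokine that was at least 2-fold higher than MEF on all 3 arrays. Its MEF level lay under the lowest detected signals of those arrays (-4.59, -4.59 and -5.13). Relative to the highest of these floors, PM2i-iPSC and ES lay less than 2-fold higher. Near-identical copies of the Ccl21 and Ccl27 genes exist in mouse, so these probes may read more than a single gene. Ccl27 read 0.48, 1.03 and 0.52, against 2.34 in MEF, 3.65-fold, 2.49-fold and 3.54-fold lower. Ccl19, which also binds Ccr7, read 1.12, 2.74 and 0.49, against 2.55 in MEF: 2.70-fold lower in PM2i-iPSC, within 2-fold in OM2i-iPSC and 4.17-fold lower in ES. Its other probe read -3.73 and -2.34 in PM2i-iPSC and OM2i-iPSC, was dim in ES, and read -6.57 in MEF, so on it the iPSC preparations were 7.17-fold and 18.7-fold higher than MEF. This MEF level too lay under the lowest detected signals of the other arrays. Ccl17, Ccl24 and Ccl28 differed from MEF by at most 2.72-fold on any array.

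Only 8 of 14 chemokine receptors were detected, 3 in PM2i-iPSC, 5 in OM2i-iPSC and 3 in ES, against 8 in MEF. Over all genes, 65.7%, 68.8% and 68.3% were detected on those arrays, against 73.4% in MEF. Of the 8 receptors, Ccr1, Ccr1l1, Ccr3 and Ccr10 had MEF levels under the floors of the other arrays. Ccr6, the Ccl20 receptor, read -1.79, -1.10 and -3.48, against -4.43 in MEF. The log2 difference from MEF was 2.64 in PM2i-iPSC, 3.33 in OM2i-iPSC and 0.95 in ES, while its ligand Ccl20 was seen in MEF alone. Ccr9, which binds Ccl25, was dim in PM2i-iPSC and read -2.53 in OM2i-iPSC and -4.15 in ES, against -1.76 in MEF. Ccr1l1, a receptor gene beside Ccr1 on chromosome 9, read -3.23 and -4.27 in PM2i-iPSC and OM2i-iPSC, was dim in ES, and read -5.85 in MEF. Ccr1 was above background in OM2i-iPSC (-3.50) and MEF (-5.38). Ccr3 and Ccr10 were detected in MEF alone, at -5.30 and -5.25. Il8rb, listed by its older name among the interleukin receptors, is the Cxcl1 and Cxcl2 receptor Cxcr2. It read -0.32, 0.62 and 0.36, against -2.49 in MEF, 4.48-fold, 8.59-fold and 7.20-fold higher. The receptor was thus lowest in MEF, where its ligands Cxcl1 and Cxcl2 were highest.

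**Figure D2:**
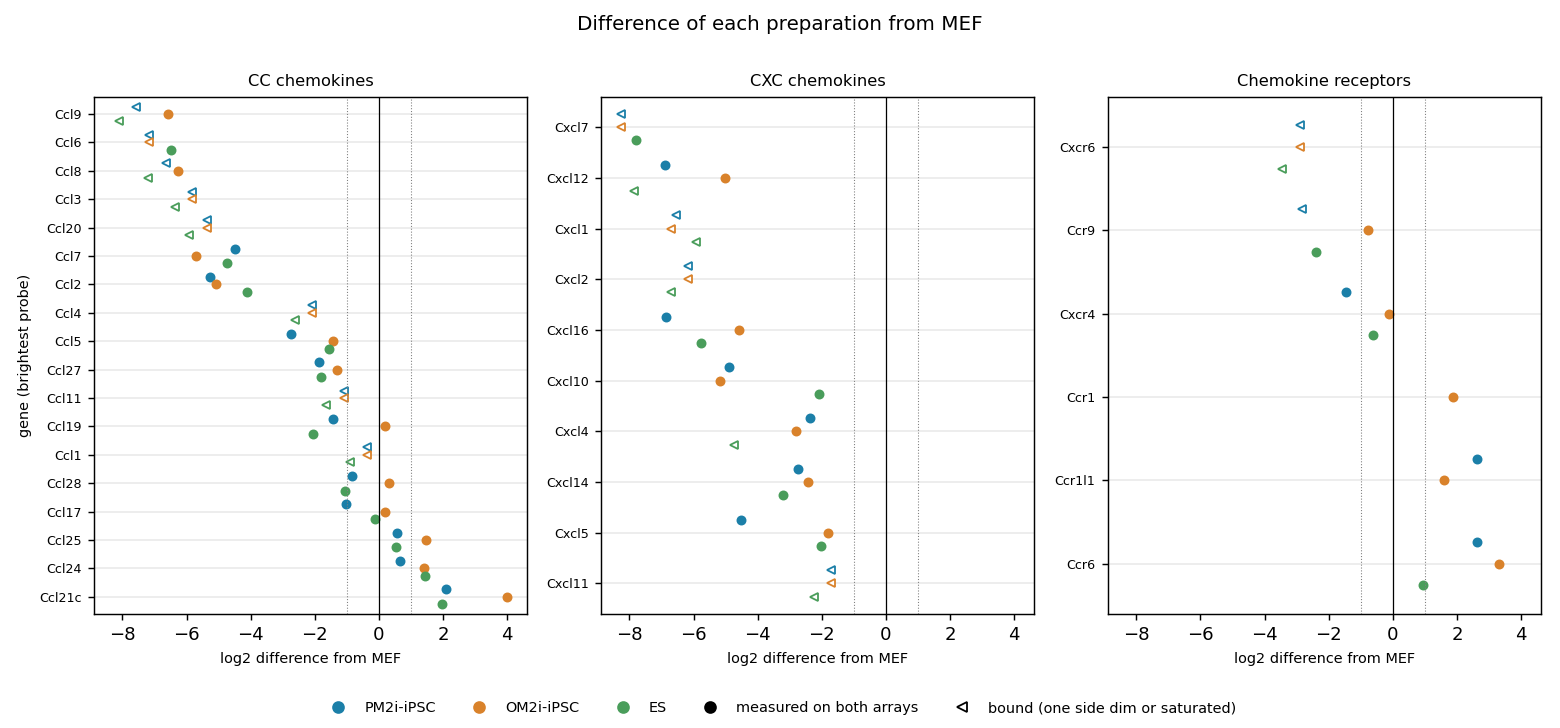
Log2 difference from MEF of each CC chemokine, CXC chemokine and chemokine receptor with a fold or a bound, for PM2i-iPSC, OM2i-iPSC and ES. Filled circles were measured on both arrays, open triangles are bounds that point away from 0, and dotted lines mark 2-fold. All CXC chemokines drawn lie left of the 2-fold line, most CC chemokines do, and Ccl21c and Ccr6 lie right of 0 for all 3.

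Interleukins and antagonists that entered were split. In PM2i-iPSC, 5 of 24 (20.8%) were at least 2-fold lower than MEF and 8 (33.3%) higher, beside 23.6% and 33.9% of all genes. In OM2i-iPSC, 5 of 30 (16.7%) were lower and 16 (53.3%) higher, beside 23.1% and 36.8%. In ES, 6 of 28 (21.4%) were lower and 12 (42.9%) higher, beside 22.4% and 33.7%. Both shares in PM2i-iPSC and the lower share in ES were thus near those of all genes. The median differences were -0.20, 1.35 and 0.36, and with quantile scaling -0.71, 0.32 and -0.38, so the direction for ES turned with the scaling.

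The lower genes were few and had wide differences. Il11, an IL-6 family cytokine that fibroblasts secrete, read -1.92, -0.82 and -0.65, against 5.15 in MEF, where it was saturated: at least 135-fold, 63.0-fold and 55.8-fold lower. Its receptor chain Il11ra1 read 1.74, 0.82 and 1.58, against 3.67 in MEF, 3.80-fold, 7.21-fold and 4.25-fold lower, and its other probe was lower as well. Ligand and receptor were thus both highest in MEF. Il6 was dim on each of the 8, 10 and 10 spots of the PM2i-iPSC, OM2i-iPSC and ES arrays and read 0.71 ± 0.06 in MEF (SD over 10 spots), at least 39.3-fold lower in PM2i-iPSC and OM2i-iPSC and 57.4-fold in ES. Its receptor Il6ra went the other way, with -1.16, -2.21 and -2.23 against -3.59 in MEF, 5.36-fold, 2.60-fold and 2.56-fold higher, and 1.84-fold, 1.78-fold and 2.59-fold higher on its other probe. Il1rn, the secreted blocker of the IL-1 receptor, was dim on the 3 pluripotent arrays and read 3.31 in MEF, at least 238-fold lower in each iPSC preparation and 348-fold in ES. A second Il1rn probe was dim on all 4 arrays. Il16, a ligand of CD4, read -1.20, -0.92 and -0.52, against 1.85 in MEF, 8.30-fold, 6.82-fold and 5.18-fold lower, while its other probe read -2.15, 0.55 and -1.79, against -1.75 in MEF. Il17d read -2.85, -3.16 and -1.66, against -1.32 in MEF, 2.88-fold lower in PM2i-iPSC, 3.56-fold in OM2i-iPSC and within 2-fold in ES.

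Il1a, an alarmin of the IL-1 family, had the largest fold or bound above MEF in ES among the chemokine, interleukin and receptor genes. It was dim in PM2i-iPSC, read -2.27 in OM2i-iPSC and -0.48 in ES, and was dim in MEF: at least 23.8-fold higher than MEF in OM2i-iPSC and 82.7-fold in ES. A second Il1a probe was dim on all 4 arrays. Il1b was seen in MEF alone, at -5.51. Il15, which is presented on Il15ra, was dim in PM2i-iPSC and read -2.75 and -3.15 in OM2i-iPSC and ES, against -6.72 in MEF, 15.7-fold and 11.9-fold higher. Its other probe was above background in PM2i-iPSC (-3.60) and MEF (-6.02) and dim in OM2i-iPSC and ES, so the 2 probes disagree on this gene. Il23a was dim in PM2i-iPSC and in MEF and read -3.26 and -4.21 in OM2i-iPSC and ES, while Il12b, the chain it pairs with, was dim on every array.

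Il25, a type 2 cytokine of the IL-17 family, read -0.65, -0.79 and -1.29, against -3.54 in MEF, 7.43-fold, 6.74-fold and 4.75-fold higher. Il18bp, which neutralises Il18, read -1.48, -2.79 and -1.79, against -4.22 in MEF, 6.69-fold, 2.69-fold and 5.39-fold higher, and Il18 itself was seen in MEF alone, at -4.16. The IL-36 genes Il1f6 and Il1f8 and the type III interferon gene Il28 were higher by 2.04-fold to 4.11-fold. Il2 was higher by 2.07-fold to 2.43-fold on its brightest probe, with a MEF level (-4.99) under the highest floor of the other arrays. The other Il2 probe, with 9 or 10 spots per array, was above background in MEF alone (-5.32). It gave no fold or bound, so it did not show Il2 higher. Il1f5 and Il27 stayed within 2-fold of each other on all 4 arrays. Il24, an IL-10 family cytokine, read -3.84 and -1.97 in PM2i-iPSC and OM2i-iPSC, was dim in ES, and read -3.76 in MEF. Its other probe was dim on all 4 arrays. Il12a and Il17b differed from MEF by 1.28-fold to 2.80-fold. Above background in OM2i-iPSC but not in PM2i-iPSC or MEF were Il3, Il13, Il17c and Il17f, all under -3.5 there, with Il3 and Il13 seen in ES as well, and Il19 was seen in OM2i-iPSC and MEF. Il7, Il10, Il1f9 and Il31 were under -4.0 in MEF and had no fold or bound past 2-fold, other than Il31 in ES (at least 2.02-fold lower).

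Interleukin receptor chains that entered were also split. In PM2i-iPSC, 11 of 29 (37.9%) were at least 2-fold lower than MEF and 9 (31.0%) higher, beside 23.6% and 33.9% of all genes. In OM2i-iPSC, 10 of 31 (32.3%) were lower and 11 (35.5%) higher, beside 23.1% and 36.8%. In ES, 12 of 31 (38.7%) were lower and 8 (25.8%) higher, beside 22.4% and 33.7%. The median differences were -0.08, 0.40 and -0.30, and with quantile scaling -0.57, -0.16 and -0.89, so the direction for OM2i-iPSC turned.

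Receptors of the IL-1 family lay at the low end. Il1rl1, the IL-33 receptor ST2, was dim in both iPSC preparations, read -1.60 in ES and 5.11 in MEF, where it was saturated: at least 829-fold lower in each iPSC preparation and 105-fold in ES. Its other probes were above background in MEF alone, at 3.52 and -0.85. The signalling receptor Il1r1 read -3.99, -2.78 and -4.33, against 1.47 in MEF, 44.0-fold, 19.0-fold and 55.6-fold lower. The decoy receptor Il1r2 was seen in MEF alone, at 0.04. Il1rl2, the IL-36 receptor, was dim in PM2i-iPSC and ES and read -2.53 in OM2i-iPSC, against 0.76 in MEF. A second Il1rl2 probe was dim on all 4 arrays. Ligand antagonist, signalling receptor and decoy of IL-1 were thus all lower than in MEF. These receptor genes lie together on chromosome 1 from 40362239 to 40789259 with Il18r1 and Il18rap, and 4 of the 5 or 6 genes that entered were lower than MEF on each array. The shares over all genes were 23.6%, 23.1% and 22.4% in PM2i-iPSC, OM2i-iPSC and ES. Il18r1 departed from the cluster, with -2.27 in PM2i-iPSC against -5.50 in MEF (9.35-fold higher) and dim values in OM2i-iPSC and ES. Il1rap, the accessory chain, was seen in MEF alone by each detected probe. Its brightest probe by the mean read -4.55 there, with no bound past 2-fold, while another read -2.32, at least 4.83-fold, 4.84-fold and 7.05-fold lower in PM2i-iPSC, OM2i-iPSC and ES. Il1rapl2, a neuronal relative, read -2.54, -2.01 and -2.11, against -4.64 in MEF, 4.27-fold, 6.17-fold and 5.77-fold higher. Its other probe was dim on all 4 arrays.

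Receptors for type 2 and IL-10 family cytokines followed. Il4ra read -1.68, -1.62 and -3.16, against 0.79 in MEF, 5.53-fold, 5.29-fold and 15.4-fold lower. Its partner Il13ra1 read -0.54, -0.43 and -0.34, against -0.45 in MEF, a range of 0.19 over the 4 arrays. Its other probe was not flat, with -2.56, -1.51 and -0.53 against 0.09 in MEF, 6.28-fold and 3.04-fold lower in PM2i-iPSC and OM2i-iPSC and within 2-fold in ES. Il13ra2, a high-affinity IL-13 receptor often described as a decoy, was dim in both iPSC preparations and read -3.63 in ES, against -1.13 in MEF. Il10rb, shared by IL-10 family and type III interferon receptors, read -1.81, -2.68 and -1.65, against 1.64 in MEF, with log2 differences of -3.45, -4.32 and -3.29. Its partner Il28ra went the other way: it was dim in PM2i-iPSC and read -2.64 and -1.80 in OM2i-iPSC and ES, against -6.47 in MEF, 14.2-fold and 25.5-fold higher. Il21r read -2.77, -0.43 and -2.21, against 0.70 in MEF, 11.2-fold, 2.19-fold and 7.55-fold lower. Il7r was seen in MEF alone, at -2.88, and its other probes were dim on all 4 arrays. A second Il10rb probe was dim on all 4 arrays as well.

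Receptors of the IL-17 family did not move together. Il17re read -2.41, -2.19 and -3.51, against -6.33 in MEF, 15.2-fold, 17.6-fold and 7.07-fold higher, though a second probe was dim on all 4 arrays. Il17ra, the common chain, was dim in both iPSC preparations and read -3.55 in ES and -5.52 in MEF. Il17rb, the IL-25 receptor, was dim in OM2i-iPSC and MEF and read -3.14 and -4.36 in PM2i-iPSC and ES. Il17rc read 2.06, 2.57 and 2.21, against 3.40 in MEF, 2.53-fold, 1.78-fold and 2.28-fold lower, but its second detected probe read -0.27, 1.23 and -0.50, against -0.83 in MEF. Il17rd, an inhibitor of FGF signalling as well, read -2.44, -1.72 and -1.80, against -2.36 in MEF, within 2-fold on this probe. Its other probe read -3.42, -2.45 and -2.74, against -5.75 in MEF, 5.05-fold, 9.84-fold and 8.09-fold higher.

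Il12rb2, a signalling chain of the IL-12 receptor, was dim in PM2i-iPSC and MEF and read 0.35 in OM2i-iPSC and -2.69 in ES, at least 147-fold higher than MEF in OM2i-iPSC and 17.8-fold in ES. Its partner Il12rb1 read -4.29 in PM2i-iPSC and -1.84 in OM2i-iPSC, was dim in ES, and read -3.29 in MEF. OM2i-iPSC was the high array for both chains. Il2rb read -1.14, 0.47 and -1.81, against -2.68 in MEF, 2.92-fold, 8.88-fold and 1.83-fold higher. Il2rg was above background in PM2i-iPSC (-4.16) and MEF (-6.39). Il3ra read 2.41, 3.42 and 1.54, against 1.15 in MEF, 2.39-fold and 4.81-fold higher in the iPSC preparations and 1.31-fold in ES. Il15ra differed by at most 0.47 over the 4 arrays on its brightest probe, while its other probe was above background in OM2i-iPSC (-4.09) and MEF (-5.63) and dim in PM2i-iPSC and ES. Il31ra stayed within 2-fold of MEF on each array, and Il10ra was seen in MEF alone. Il27ra read -3.38 in OM2i-iPSC and -4.92 in MEF and was dim in ES, and Il18rap read -4.09 in OM2i-iPSC alone. Il4i1, outside these roles, read 0.01, -0.49 and 0.07, against -1.45 in MEF.

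**Figure D3:**
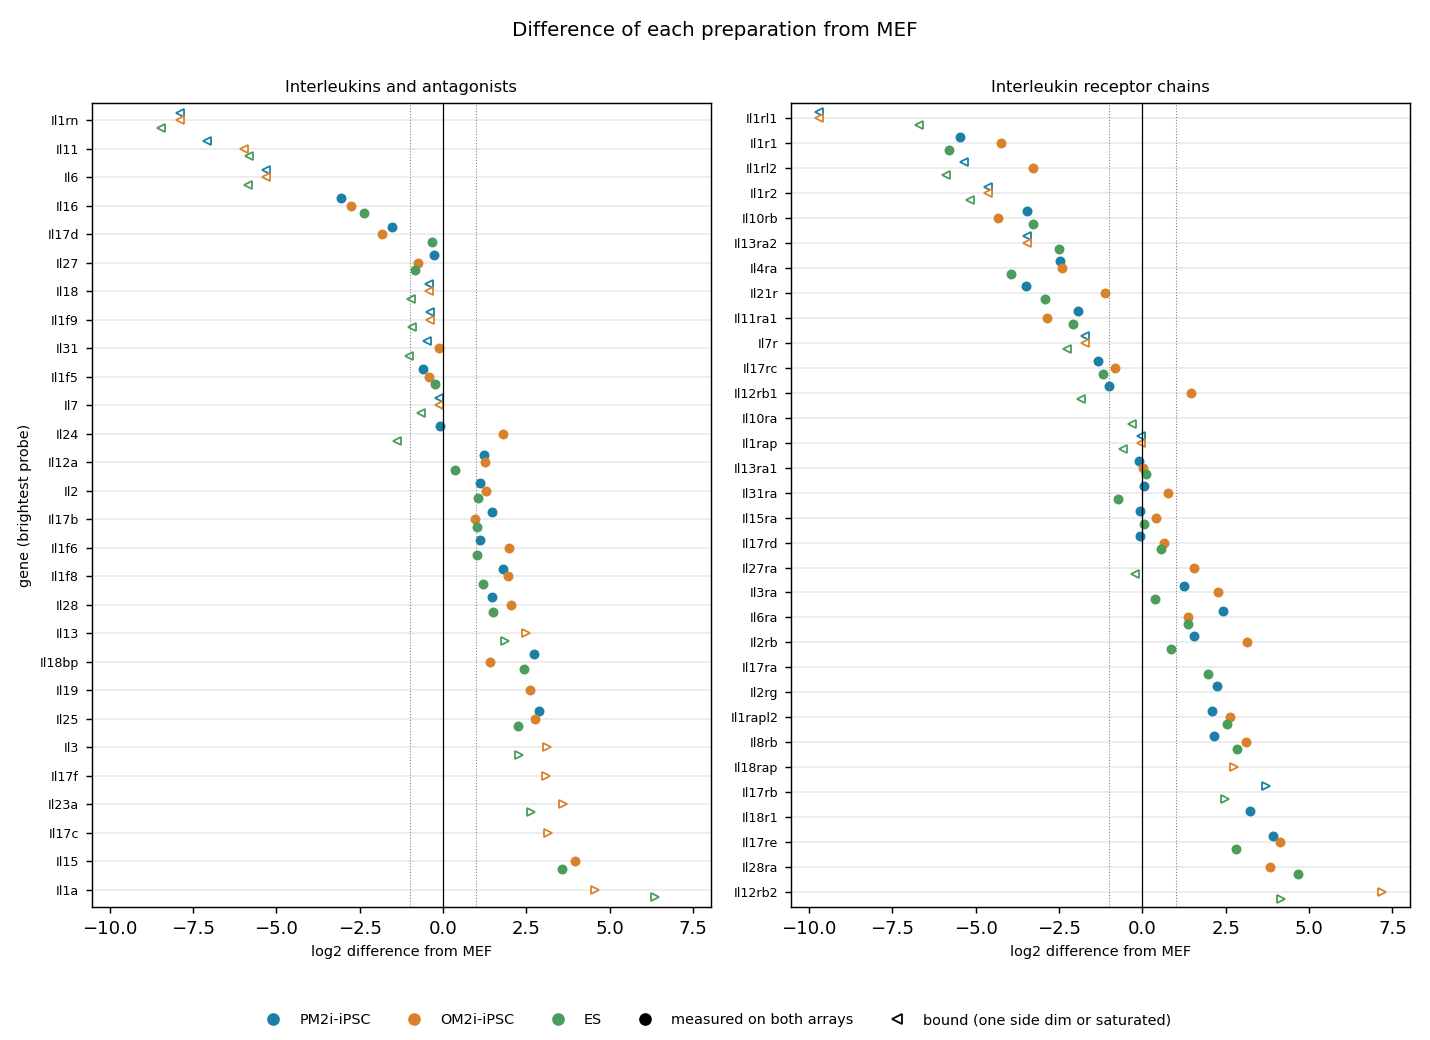
Log2 difference from MEF of each interleukin, antagonist and interleukin receptor chain with a fold or a bound, for PM2i-iPSC, OM2i-iPSC and ES. Filled circles were measured on both arrays, open triangles are bounds that point away from 0, and dotted lines mark 2-fold. Il1rn, Il11, Il6 and Il1rl1 lie at the far left, and Il12rb2, Il28ra, Il1a and Il17re at the far right.

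Where genes were at least 4-fold apart between ES and MEF, the iPSC level could be placed between them, with dim values raised to the highest floor. Of 39 such genes, PM2i-iPSC lay nearer to ES than to MEF in 37 (94.9%), and OM2i-iPSC did so in 36 (92.3%). Over all 5232 such genes the shares were 90.3% and 85.5%. Of the 33 genes higher in MEF, 33 and 30 lay nearer to ES (92.4% and 85.6% over all genes). Of the 6 higher in ES, 4 and 6 did (88.6% and 85.4%). Where ES and an iPSC preparation were both dim, both sat at the floor, so the answer was fixed in advance. Ccl20, Cxcl2, Il1rn and Il6 were among such genes. Nearer to MEF were Il1a and Il28ra in PM2i-iPSC and Ccl19, Ccr9 and Il21r in OM2i-iPSC. Both preparations were placed against the same ES and MEF arrays.

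Against ES, the iPSC preparations differed from each other in how many genes departed, as they did over all genes. In PM2i-iPSC, 9 of 68 genes were at least 2-fold higher than ES, against 14.1% of all genes, and 13 were at least 2-fold lower, against 11.3%. In OM2i-iPSC, 26 of 76 were higher, against 20.9% of all genes, and 7 were lower, against 13.3%. The median differences were -0.05 and 0.53, beside -0.04 and 0.06 over all genes. PM2i-iPSC shared the slide of ES and OM2i-iPSC did not, so for OM2i-iPSC slide and preparation cannot be told apart. By role, the interleukin receptor chains gave the largest number, with 12 of 26 higher in OM2i-iPSC.

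Higher than ES in both preparations were Ccr6, Cxcl4, Il17re, Il24 and Il4ra. Ccr6 was 3.22-fold higher in PM2i-iPSC and 5.19-fold in OM2i-iPSC, and Il4ra 2.79-fold and 2.91-fold. Il17re was 2.15-fold and 2.49-fold higher. Cxcl4 and Il24 were dim in ES, with bounds of 5.22-fold and 3.84-fold for Cxcl4 and 2.44-fold and 8.96-fold for Il24. For Cxcl4 and Il4ra the iPSC levels thus lay between those of ES and MEF.

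Lower than ES in both were Cxcl10, Il17d, Il17ra, Il1a and Il1rl1. Cxcl10 was 6.94-fold lower in PM2i-iPSC and 8.46-fold in OM2i-iPSC. Il1rl1 was at least 7.93-fold lower in each, and Il17ra at least 2.06-fold. Il17d was 2.29-fold and 2.83-fold lower. Il1a was at least 17.3-fold lower in PM2i-iPSC and 3.47-fold in OM2i-iPSC. Cxcl10 and Il1rl1 were lower in both preparations than in ES, which was itself lower than MEF.

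The other departures from ES were past 2-fold in the same direction in 1 preparation only, and whether the preparations differ in them was not tested. In PM2i-iPSC, Il18r1 was at least 7.27-fold higher, Ccr1l1 at least 3.59-fold, Il17rb 2.32-fold and Il6ra 2.09-fold. The other Il6ra probe went the other way within 2-fold, with -2.33 in PM2i-iPSC and -1.835 in ES. Lower in PM2i-iPSC were Il28ra (at least 6.93-fold), Cxcl5 (5.68-fold), Il12rb2 (at least 3.72-fold), Il15 (at least 2.50-fold), Il11 (2.42-fold), Ccl2 (2.25-fold), Ccl5 (2.25-fold) and Cxcl16 (2.15-fold). In OM2i-iPSC, the widest differences upward came from receptors and 2 chemokines: Il12rb1 was at least 9.81-fold higher, Il12rb2 8.23-fold, Cxcl12 at least 7.11-fold, Il1rl2 at least 6.08-fold, Il2rb 4.84-fold and Ccl19 4.75-fold. Il10rb was 2.04-fold and Il18bp 2.01-fold lower there.

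**Figure D4:**
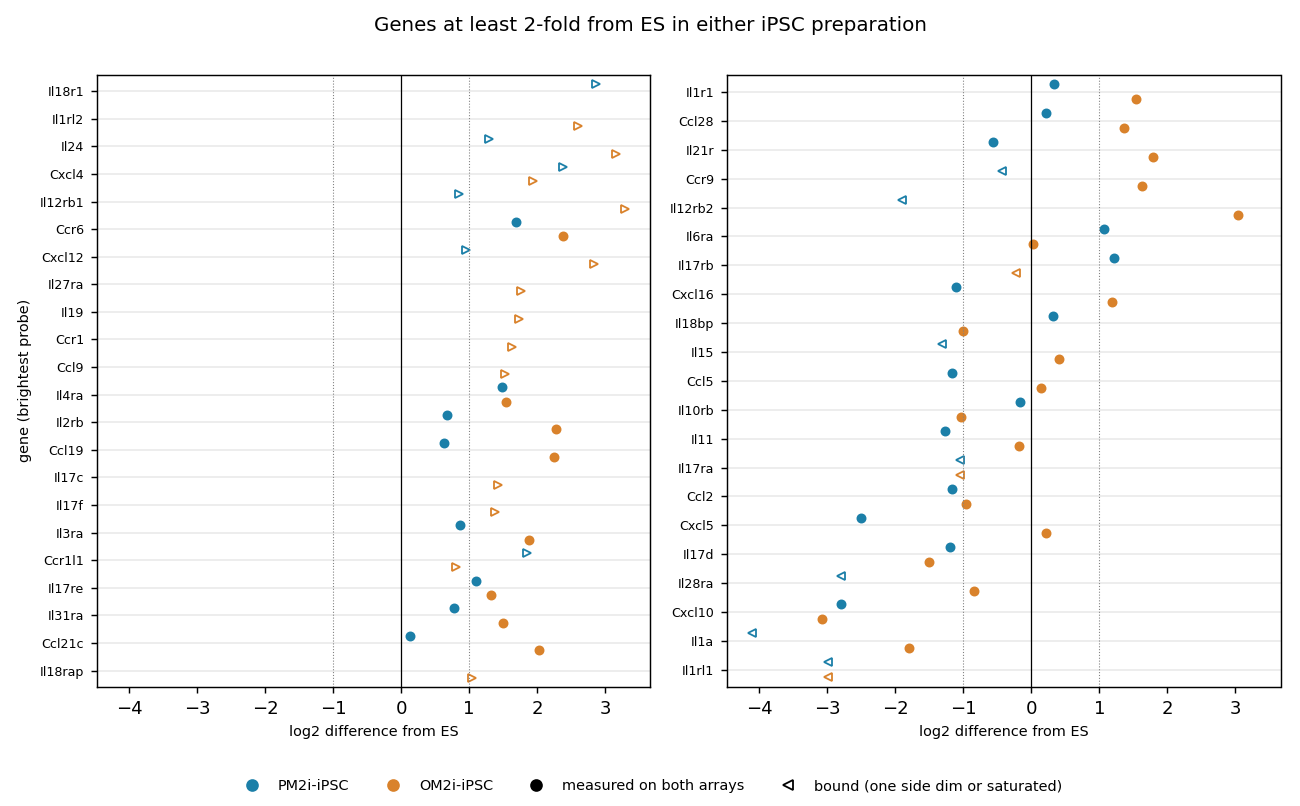
Log2 difference from ES of each gene at least 2-fold from ES in PM2i-iPSC or OM2i-iPSC, split over 2 panels. Filled circles were measured on both arrays, open triangles are bounds that point away from 0, and dotted lines mark 2-fold. Points of OM2i-iPSC outnumber those of PM2i-iPSC right of the 2-fold line, and Il12rb2 and Cxcl16 have their points beyond the 2-fold lines on opposite sides of 0.

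Set against each other, PM2i-iPSC had 6 of 72 genes at least 2-fold higher than OM2i-iPSC, against 12.3% of all genes, and 25 at least 2-fold lower, against 17.2%. The median difference was -0.57, beside -0.10 over all genes. Higher in PM2i-iPSC were Ccl7 (2.34-fold), Ccr1l1 (2.05-fold), Il18bp (2.49-fold), Il6ra (2.06-fold), Il17rb (at least 2.72-fold) and Il18r1 (at least 4.99-fold). The other probes of Il6ra (-2.33 and -2.38 in PM2i-iPSC and OM2i-iPSC) and Ccl7 (-3.78 and -4.17) lay within 2-fold. Those of Il18bp (-2.505) and Il17rb (-4.32) were above background in PM2i-iPSC and dim in OM2i-iPSC. The widest differences the other way were Il12rb2 (at least 30.6-fold lower), Cxcl5 (6.60-fold), Il12rb1 (5.46-fold), Il21r (5.08-fold), Il1a (at least 4.97-fold), Cxcl16 (4.90-fold), Ccr9 (at least 4.18-fold) and Il1rl2 (at least 4.17-fold). Chemokines and receptors were on both sides, and 3 of 7 CXC chemokines, 5 of 12 CC chemokines, 3 of 5 chemokine receptors and 8 of 24 interleukin receptor chains were lower in PM2i-iPSC. The arrays lay on different slides, so slide and preparation cannot be told apart.

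Probes with 8 to 10 spots per array show the spread behind these values. Il18 read -4.16 ± 0.07 in MEF (10 spots) and was dim on the other arrays, where its spots had SDs of 0.58 in PM2i-iPSC, 0.48 in OM2i-iPSC and 0.22 in ES. Il10 read -5.38 ± 0.12 in MEF (8 spots), and its 9 spots in PM2i-iPSC, not well above background as a probe, had an SD of 1.16. For Il18, Il1b and Il6 the SD over spots was wider on each dim array than in MEF. This did not hold for Il10 and Il2. Il10 had SDs of 0.08 in OM2i-iPSC and 0.10 in ES, against 0.12 in MEF. Il2 had 0.097 in ES, against 0.110 in MEF. The replicated probes of Il4 and Il12b were dim on all 4 arrays.

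**Figure D5:**
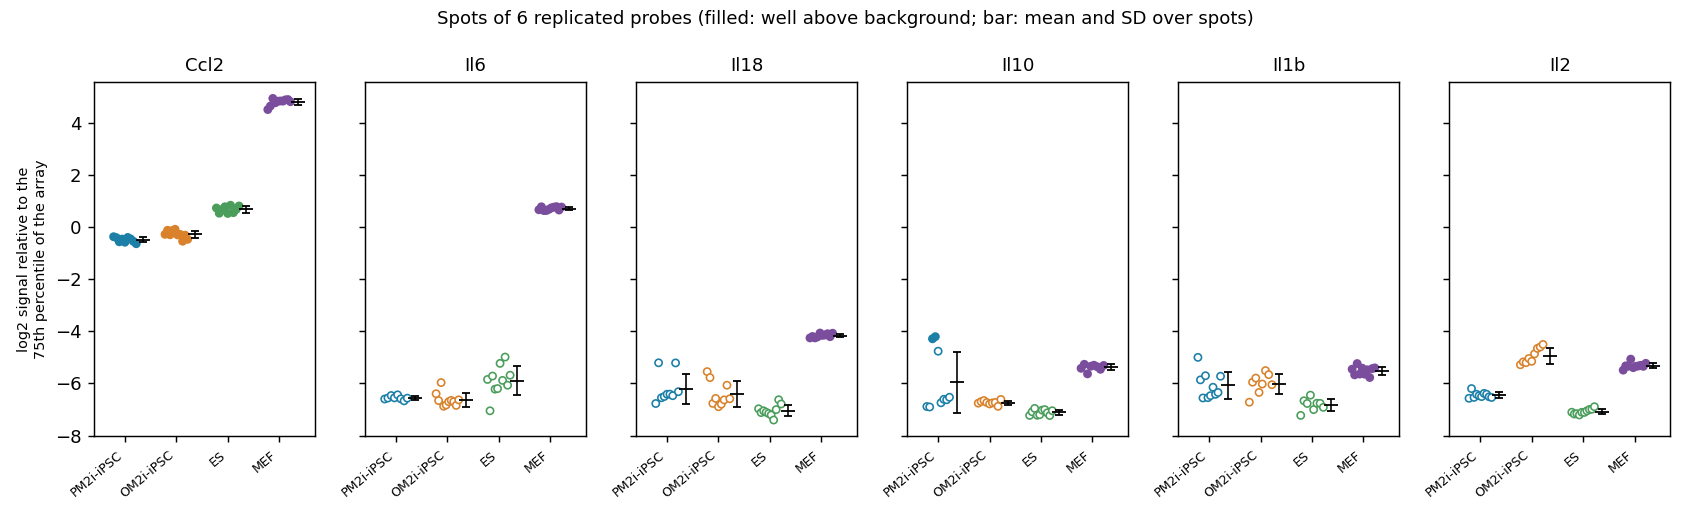
Level (log2 signal relative to the 75th percentile of the array) of every spot of 6 probes with repeat spots, on the PM2i-iPSC, OM2i-iPSC, ES and MEF arrays. Filled points were well above background, open points were not, and bars give the mean and SD over spots. The Ccl2 spots lie between 4 and 5 in MEF and under 1 elsewhere, and Il6 is well above background in MEF alone; the Il2 probe drawn is not the brightest of its gene.

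For genes with several probes the other probes were set beside the brightest. Among genes past 2-fold, 11 of 17 other probes went the same way past 2-fold for PM2i-iPSC against MEF, 9 of 16 for OM2i-iPSC and 12 of 17 for ES. The opposite way went Ccl19 for PM2i-iPSC and Il16 for OM2i-iPSC. Against ES, 1 of 6 went the same way for PM2i-iPSC, with Il15 opposite, and 3 of 4 for OM2i-iPSC. Between PM2i-iPSC and OM2i-iPSC, 3 of 9 did.

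Genes of the same pathways outside the name rule were read from 4 lists. Over all genes, 23.6%, 23.1% and 22.4% were at least 2-fold lower than MEF in PM2i-iPSC, OM2i-iPSC and ES, and 33.9%, 36.8% and 33.7% higher. Of the 27 detected NF-kB factors, regulators and targets, 16 were at least 2-fold lower than MEF in PM2i-iPSC, 15 in OM2i-iPSC and 15 in ES, and 3, 1 and 1 were higher, with median differences of -1.31 in PM2i-iPSC, -1.34 in OM2i-iPSC and -1.28 in ES. Among its targets Saa3 read -2.66, -1.45 and -2.13, against 4.12 in MEF. The inhibitor Nfkbia was lower on all 3 arrays (3.16-fold, 3.45-fold and 3.53-fold). Of 35 signal transducers, 18, 17 and 19 were lower than MEF and 8, 8 and 10 higher in PM2i-iPSC, OM2i-iPSC and ES. Stat4, which acts downstream of the IL-12 receptor, was dim in MEF and at least 87.0-fold, 155-fold and 163-fold higher on the 3 arrays. Sigirr, an inhibitory IL-1 receptor relative, was 23.1-fold, 19.9-fold and 44.5-fold higher. Of 8 detected genes that process IL-1 family cytokines, 4 were lower on each array, among them Casp1 and Casp4, and 3, 4 and 2 were higher, among them the adaptor Pycard. Of the cytokine relatives that entered (34, 34 and 35 genes), 10, 8 and 8 were lower and 9, 11 and 11 higher. For OM2i-iPSC and ES these counts lay near the shares of all genes. Ltb (dim in MEF) was up and Tnfrsf11b and Tslp were down. The LIF receptor Lifr read -1.39, -3.49 and -2.65, against -4.62 in MEF, 9.35-fold, 2.19-fold and 3.92-fold higher.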

How the data were processed

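Total RNA of 4 mouse cell populations was hybridised to 1-colour Agilent arrays, 1 per group. Per the file headers, the deposited intensity of each spot is the signal processed by Feature Extraction 10.7.3.1 (PM2i-iPSC, OM2i-iPSC, ES) or 9.5.3.1 (MEF), and its probe positions use build mm8 or mm7. The authors' deposited series table held the same intensities within 0.5% and served as an alternative. Control and outlier spots were removed, log2 signals were set to the 75th percentile of each array, and spots of a probe were averaged. A probe was detected when over 50% of its spots were well above background. A fold of 2 was counted, with no test, because there was 1 array per group. The code was tested on simulated data. Alternatives were quantile scaling, normexp (limma 3.58.1, on median signals since 3 files hold no mean signal), the median over probes, detection on both arrays, and a common floor. Tables and plots used pandas 2.3.3, numpy 2.4.6 and matplotlib 3.10.9. RefSeq (GRCm38.p6) named 152 of 180 probes by accession, and file names were kept. The genes, lists and rules were chosen with earlier results of these data known. Genes named in full followed the written rule, and other members are named to account for them, after their values were seen; 1 member is not reported here by name. Markers of fibroblasts, pluripotent cells, macrophages, T and NK, B, mast, granulocyte and endothelial cells were read the same way.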

Additional observations from a re-analysis of the deposited data

Results flagged for a closer look

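In 2 genes both iPSC preparations departed from ES by at least 2-fold in opposite directions, and the difference between the preparations was not tested. Cxcl16 differed from ES by -1.10 on the log2 scale in PM2i-iPSC and by 1.19 in OM2i-iPSC. Its second probe read -2.87 and -2.58, against -3.72 in ES, so on that probe both preparations were above ES. Il12rb2, measured by 1 probe, differed by -1.90 in PM2i-iPSC, where it was not well above background and the value is a bound, and by 3.04 in OM2i-iPSC. OM2i-iPSC lay on another slide than the other 2 arrays.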

How the results depend on the processing

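With 1 array per group, depth of replication is the limit: no difference has an error beyond the spots of an array, and MEF cannot be told apart from its slide, scan day and software. No paired analysis was possible because each group has 1 array and the results come from no test. The deposited table left all 18 counts and medians within the limits set for a shift, but it holds nearly the same intensities. A common detection floor stayed within those limits too, yet it lowered several counts. Genes higher than MEF went from 21 to 18 in PM2i-iPSC, from 33 to 26 in OM2i-iPSC and from 23 to 17 in ES. Genes lower than MEF stayed at 42 and 37 in PM2i-iPSC and OM2i-iPSC and went from 43 to 41 in ES. Genes higher than ES in OM2i-iPSC went from 26 to 22. Keeping only genes well above background on both arrays removes those seen in MEF alone, so genes lower than MEF numbered 23 in PM2i-iPSC, 22 in OM2i-iPSC and 24 in ES, and higher ones 20, 25 and 17, with medians of -0.18, 0.26 and -0.33. Against ES it gave 5 higher and 7 lower in PM2i-iPSC and 14 higher in OM2i-iPSC, and 16 lower in PM2i-iPSC than in OM2i-iPSC. Quantile scaling gave a median of -0.40 for OM2i-iPSC against MEF and 11 genes lower in OM2i-iPSC than in ES. Normexp gave a median of -0.62 for ES against MEF, and the median over probes -0.91 for PM2i-iPSC against MEF. The median over probes turned the direction of Il17rc against MEF (0.56 in PM2i-iPSC and 0.34 in ES), of Ccl19 in PM2i-iPSC against MEF (0.71) and of Il15 in PM2i-iPSC against ES (1.13). For these shifts the cause was not tested, other than the probes of those genes disagreeing.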
